A study of Caenorhabditis elegans with 8 samples.

Results

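The respiratory chain genes described here are the nuclear genes of Caenorhabditis elegans whose WormBase symbol begins with nuo, nduf, ucr, sdha, sdhb, sdhd, cox, cyc, atp, asg or asb followed by a number. Of 48 such symbols in the gene name table, 46 were listed in the deposited table of 17076 genes, and cox-16 and cox-17 were not analysed here. The symbols did not match subunits alone: 40 of the 46 genes encode subunits of complexes I to V or cytochrome c, and 6 (cox-10, cox-11, cox-14, cox-15, cox-18 and cox-19) encode factors that build complex IV. By complex, 12 genes belong to complex I, 4 to complex II, 6 to complex III, 2 to cytochrome c, 7 to complex IV and 9 to complex V. On the WBcel235 genome, 15 lie on chromosome I, 6 on II, 11 on III, 5 on IV, 4 on V and 5 on X.

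The chain sits in the inner mitochondrial membrane, where complexes I and II pass electrons to ubiquinone, complex III passes them on to cytochrome c, and complex IV hands them to oxygen. Complexes I, III and IV pump protons as they work, and complex V, the ATP synthase, lets the protons back in and makes ATP. Most subunits are encoded in the nucleus and a small set in mitochondrial DNA, and in C. elegans a few nuclear subunits come from pairs of similar genes (paralogs), of which asb-1 is known as a germline form of ATP synthase subunit b.

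The study compared whole N2 hermaphrodites, the wild-type laboratory strain, at 2 ages: 4 libraries labelled adult day 5, kept for 180 h at 20 °C after plating as synchronized L1 larvae, and 4 labelled adult day 1, kept for 60 h. Both groups were fed OP50 bacteria and carried no mutation or transgene by their labels. TRIzol RNA was selected for poly(A) and made into libraries with a NEBNext Ultra kit, and each age has 1 library in each of 4 labelled batches. The design text names the day 1 control with the code of the day 5 worms, and the culture times are 5 days apart where the ages are 4. Whether each library had its own culture is not given in the labels, so p-values reflect the spread between libraries alone, and that spread may be technical.

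Values are normalised read counts, meaning reads of a gene divided by a size factor of the library, without a correction for gene length. Recovered reads ranged from 20569012 to 22305681 per library at day 5 and from 19345868 to 20763236 at day 1. The chain genes held 1.06 ± 0.07% of all reads at day 5 and 2.0 ± 0.15% at day 1 (SD, n = 4 each). Copies made by PCR count as reads here, and a value of about 1 rests on a single read. Reads of nuo-3 and cox-14 are uncertain, because 783 of 1078 exonic bases of nuo-3 and 519 of 686 of cox-14 lie in another annotated gene. Both had values between 0 and 6 in every library.

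Markers of most cell types looked at moved strongly between the ages, and sperm markers are described with cytochrome c below. The counts of markers given here stand beside 28.8% higher and 26.8% lower of all genes tested. Of 16 germline and oocyte markers, 15 were higher at day 5, and their summed value was 204707 to 307173 at day 5 against 18408 to 29622 at day 1. The oocyte RNA-binding protein gene puf-5 had values of 26514, 16314, 19038 and 27481 at day 5 and 205, 95.3, 72.7 and 33.9 at day 1. The gene col-19, an adult cuticle collagen, had 1752, 12985, 5241 and 5396 at day 5 and 88.7, 248, 20.9 and 1.94 at day 1, so the libraries labelled adult day 1 held little of this adult marker. It was the only higher gene of 6 hypodermis markers, of which 4 were lower, and the median of that list was -2.88. All 13 body-wall muscle markers were lower, with sums of 59185 to 113992 at day 5 against 213945 to 424654 at day 1. Of 9 intestine markers 7 were lower, with sums of 75146 to 98160 at day 5 against 160466 to 243642 at day 1. All 5 pharyngeal muscle markers were lower too, with sums of 2943 to 4674 at day 5 against 8886 to 28397 at day 1. No gene of these lists was at 0 in any library. In whole worms fewer cells of a type and less RNA per cell cannot be told apart, and the part of these shifts in the results on the chain was not tested.

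Most chain genes were lower at day 5, and 4 were higher. Genes were called with limma at an adjusted p under 0.05 (Benjamini-Hochberg over 16739 genes tested). Of the 46 chain genes, all tested, 31 were lower, where 26.8% of all genes tested were lower. The 4 higher ones, asb-1, ucr-2.3, sdha-2 and nduf-2.2, stand beside 28.8% higher of all genes tested, and 11 were not called. In all 35 of the 46 were called, where 55.6% of all genes were. The values of the ages did not overlap for 76.1% of the chain genes, beside 52.8% of all genes tested. By edgeR 34 were lower and 4 higher, where 27.9% of all genes were lower and 27.7% higher. With the labelled batch as a term in limma 35 were called, where 52.6% of all genes were. The median log2 difference (that of day 5 minus that of day 1, with log2 taken of value + 1) was -0.86 over the chain genes and -0.06 over all genes tested.

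Summed over the 46 genes, the value was 223568, 213491, 202126 and 246540.0 in the 4 day 5 libraries and 345915, 359052, 445770.0 and 433310.0 in the 4 day 1 libraries, in batch order. The sums did not overlap, and the day 5 mean of 221431 ± 18892 stood against 396012 ± 50803 at day 1 (SD, n = 4 each). Of the 35 called genes, 34 differed in the same direction in all 4 batches, and sdha-1 was the exception. A gene whose ages do not overlap must do so, and of the called genes only sdha-1 and atp-1 overlapped. The count therefore adds almost nothing to the calls. Median log2 differences by batch were -0.66, -0.57, -1.24 and -0.81 in batches 1 to 4. At least 2-fold differences on the log2(value + 1) scale were found for 13 of the lower and 3 of the higher genes. The plot of differences by complex shows the lower genes spread over every complex, with a single higher gene in each of complexes I, II, III and V.

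**Figure D1:**
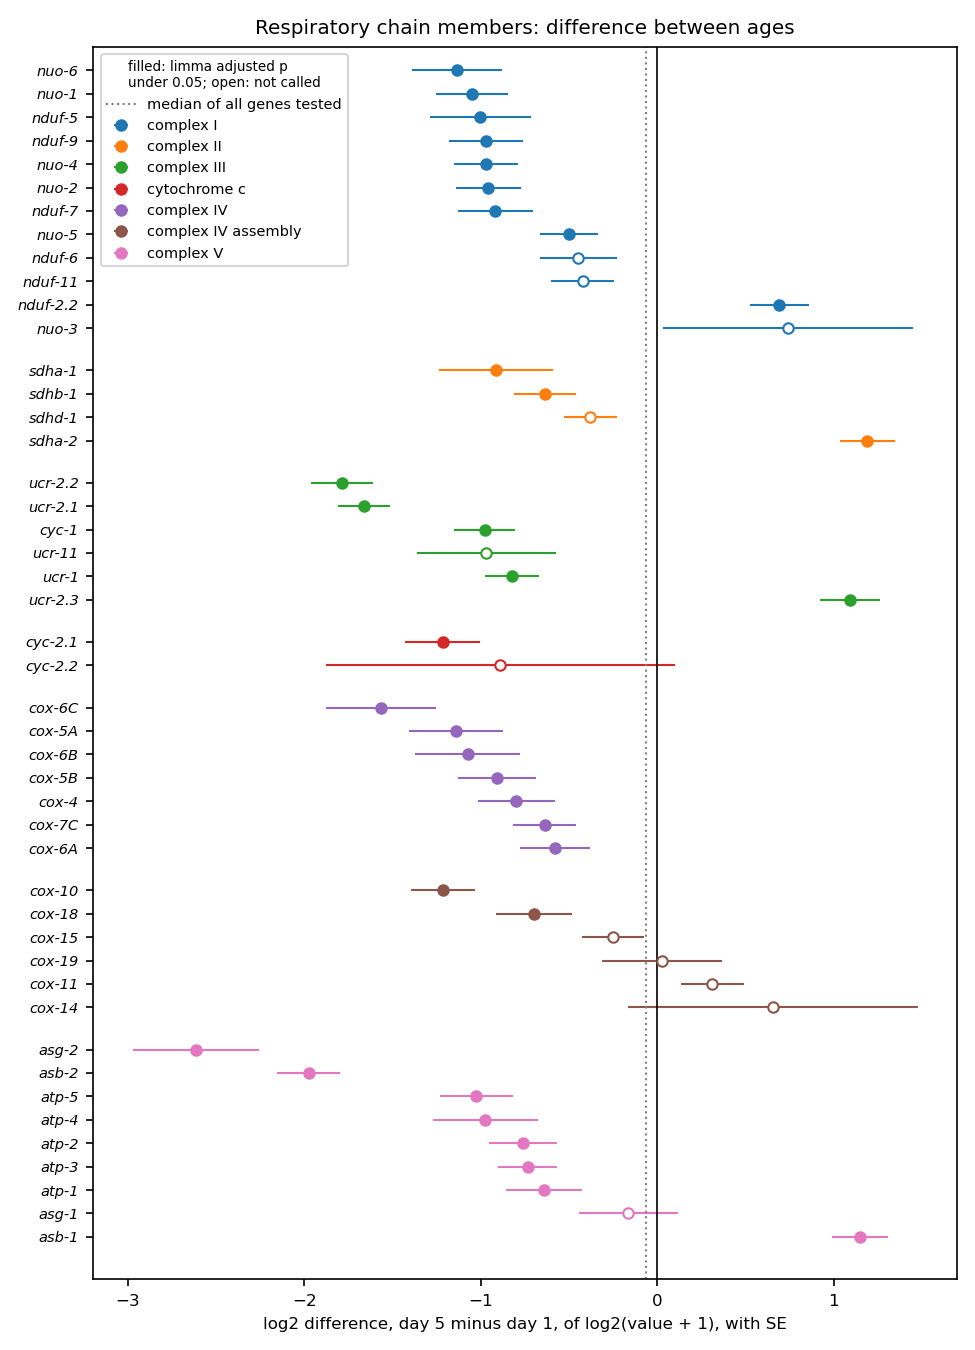
Log2 difference, day 5 minus day 1, of log2(value + 1) for each of the 46 chain genes (x axis), grouped by complex, with the limma standard error (n = 4 libraries per age). Filled points passed an adjusted p of 0.05, and the dotted line is the median of all genes tested, -0.06. The 4 filled points right of 0 are nduf-2.2, sdha-2, ucr-2.3 and asb-1.

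Complex I, the NADH dehydrogenase, had 8 genes lower, 1 higher and 3 not called of 12, with a median log2 difference of -0.94. Over all genes tested 26.8% were lower and 28.8% higher. The gene nuo-1, the subunit that binds NADH, had the highest level of these per kb of exon over all libraries, at 3981 ± 277 per kb at day 5 and 8420.0 ± 2069 at day 1 (SD, n = 4 each). Its normalised counts were 6519.9, 6247, 5869 and 6924 at day 5 against 10420.0, 10921, 16904 and 15811 at day 1. Every day 5 library lay below every day 1 library, and the log2 difference was -1.05 (SE 0.20) with a limma adjusted p of 0.00159. The accessory subunit gene nuo-6 fell most, with 1951, 2172, 1990.2 and 2580.5 at day 5 against 3764, 3369, 7461 and 5394 at day 1 and a log2 difference of -1.14 (SE 0.25, adjusted p = 0.00375 by limma). Its day 1 values spread widely, lowest in batch 2 and highest in batch 3, and all lay above day 5. The core subunit genes nuo-2, nduf-7 and nuo-5 and the accessory genes nuo-4, nduf-5 and nduf-9 were also lower, with log2 differences from -0.50 in nuo-5 to -1.005 in nduf-5. The call of nuo-5 was lost when any 1 of the day 1 libraries of batches 1, 2 and 4 or the day 5 libraries of batches 2 and 3 was left out, with limma adjusted p from 0.0507 to 0.0815, and without batches 1 and 2 of day 1 (0.0760). The 3 genes not called were nduf-6 at -0.45, nduf-11 at -0.42 and nuo-3, which had almost no reads. The higher gene was nduf-2.2, a core subunit with a paralog.

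Complex II, succinate dehydrogenase, joins the chain to the tricarboxylic acid cycle. Of its 4 genes in the set 2 were lower, 1 was higher and 1 was not called, where 26.8% of all genes tested were lower and 28.8% higher. Their summed value was 11881, 11400.3, 10559 and 12409.5 at day 5 and 14673, 15306, 12154 and 15526 at day 1, with 1 day 1 library inside the day 5 range. The day 5 mean of this sum was 0.802 of the day 1 mean, where complexes I, III, IV and V had 0.577, 0.542, 0.486 and 0.573. These sums leave out genes outside the symbol rule, such as mev-1, the cytochrome b subunit gene of complex II. That gene had 1740, 1578, 1540.3 and 1848 at day 5 and 2745, 2895, 4337 and 4218 at day 1. The ratio and the overlap of complex II therefore hold for the 4 genes alone. The iron-sulfur subunit gene sdhb-1, the gene of the complex with the highest level per kb, had 3562, 3627, 3221 and 3756 at day 5 and 4625, 4781, 6135 and 6717 at day 1. These values did not overlap, with a log2 difference of -0.64 (SE 0.17) and a limma adjusted p of 0.0108. The membrane anchor gene sdhd-1 had non-overlapping values, 1925, 1689, 1873 and 2202 at day 5 and 2637, 2389, 2373 and 2578 at day 1, but its limma adjusted p of 0.0542 missed the threshold. The flavoprotein subunit comes from sdha-1 and sdha-2, which moved in opposite directions.

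Complex III, the cytochrome bc1 complex, had 4 genes lower, 1 higher and 1 not called of 6, with a median of -0.97. These counts stand beside 26.8% lower and 28.8% higher of all genes tested. Cytochrome c1, encoded by cyc-1, had the highest level per kb of the complex, 4973 ± 489 at day 5 and 9848 ± 1484 at day 1 (SD, n = 4 each). Its counts were 7353, 6675, 6716 and 8197 at day 5 against 12589, 12341, 16349.7 and 16037 at day 1, with no overlap and a log2 difference of -0.98 (SE 0.17, adjusted p = 0.000985 by limma). The core protein gene ucr-1 was lower by a similar amount, with a log2 difference of -0.82 (SE 0.15) and a limma adjusted p of 0.00134. The small gene ucr-11, a minor subunit, had 620.0, 1188, 697 and 1031 at day 5 and 1152, 1039, 3705 and 1751 at day 1 and was not called (adjusted p = 0.0613 by limma). The ages overlapped, and the batch 3 library at day 1 stood far above the others.

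Cytochrome c, the soluble carrier between complexes III and IV, comes from cyc-2.1 and cyc-2.2. Nearly all of its reads came from cyc-2.1, which had 6016, 6403, 6584 and 7303 at day 5 and 12683, 11703, 20349 and 17881 at day 1, with a log2 difference of -1.22 (SE 0.21) and a limma adjusted p of 0.000867. The values did not overlap, and per kb cyc-2.1 reached 28514 ± 7542 at day 1. In contrast cyc-2.2 had 27.01, 157, 48.7 and 23.9 at day 5 and 377, 234, 42.9 and 15.5 at day 1 and was not called. Its day 1 libraries split into higher values in batches 1 and 2 and lower ones in batches 3 and 4, and the ages overlapped. Sums of 13 sperm markers split the same way, with 842, 5401, 3429.5 and 3371 at day 5 and 9695, 5215, 438 and 506 at day 1, and none of those markers was called by limma, 1 at an unadjusted p under 0.05, 1 by edgeR and 2 by DESeq2. Without batches 3 and 4 of day 1 limma called 4 of the sperm markers lower, and without batches 1 and 2 it called 11 higher. The part of that split in cyc-2.2 was not tested.

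All 7 subunit genes of complex IV, cytochrome c oxidase, were lower, without overlap between the ages and with a median of -0.91. Over all genes tested 26.8% were lower, and 52.8% did not overlap between the ages. The gene with the highest level per kb, cox-5A, had 7447, 8042, 7069 and 8933 at day 5 and 13238, 12155, 27273 and 20368 at day 1. Its log2 difference was -1.14 (SE 0.26, adjusted p = 0.00447 by limma), and its batch 3 library at day 1 was the highest of all 8. Among the 7 genes cox-6C had the largest difference, with 2131, 2689, 2031 and 2482 at day 5 against 4754, 4479, 12003 and 8737 at day 1, a log2 difference of -1.57 (SE 0.31) and a limma adjusted p of 0.0019. The other subunit genes, cox-4, cox-5B, cox-6A, cox-6B and cox-7C, had log2 differences between -1.07 in cox-6B and -0.58 in cox-6A. Without batches 3 and 4 of day 1, 5 of the 7 were called. The exceptions were cox-6A, at -0.31 (adjusted p = 0.133 by limma), and cox-7C, at -0.43 (adjusted p = 0.0536 by limma). The call of cox-6A was also lost when the day 1 library of batch 4 or the day 5 library of batch 1, 2 or 3 was left out, with limma adjusted p from 0.0639 to 0.0831.

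The 6 assembly factors of complex IV had a median of -0.11, and 2 were lower and 4 not called. That is 33.3% lower, a share near the 26.8% lower of all genes tested. The lower ones were cox-10, which makes heme O, and cox-18, which helps to insert a subunit into the membrane. The values of cox-10 were 222, 200.3, 193 and 217 at day 5 against 446, 472, 479.9 and 544 at day 1, which did not overlap, with a log2 difference of -1.22 (SE 0.18) and a limma adjusted p of 0.000352. That of cox-18 was -0.70 (SE 0.22) with a limma adjusted p of 0.0189. It was not called without the day 1 library of batch 4 or without the day 5 library of batch 2 or 3 (limma adjusted p from 0.0520 to 0.0562), nor without batches 3 and 4 of day 1 (0.0941). The heme A synthase gene cox-15, with the highest level per kb of the 6, had 1421, 1329, 1295 and 1651 at day 5 and 1437, 1597, 1663 and 2112 at day 1. These overlapped, and the log2 difference of -0.25 (SE 0.18) was not called (adjusted p = 0.259 by limma). The copper insertion factor gene cox-11 had a log2 difference of 0.31 and cox-19, also tied to copper delivery, one of 0.03, neither called. Levels per kb of the 5 assembly genes with reads were all below those of the 7 subunit genes at both ages.

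In complex V, the ATP synthase, 7 of 9 genes were lower, 1 was higher and 1 was not called, with a median of -0.76. Over all genes tested 26.8% were lower and 28.8% higher. The catalytic beta subunit gene atp-2 had the highest level of the whole set per kb at both ages, 18955 ± 1904 at day 5 and 32230.3 ± 3943 at day 1 (SD, n = 4 each). Counts of atp-2 were 38731, 35064, 32151 and 40312 at day 5 against 61585, 69882, 51962 and 65260.4 at day 1, without overlap, and the log2 difference was -0.76 (SE 0.19, adjusted p = 0.00728 by limma). Under quantile normalization atp-2 was not called, with a log2 difference of -0.21. The alpha subunit gene atp-1 had 34654, 29612, 30301 and 38608 at day 5 and 54469.9, 61350.5, 38372 and 55494 at day 1. Its log2 difference was -0.64 with a limma adjusted p of 0.0279. Its ages overlapped, since the batch 3 library at day 1 was the lowest of its group and lay under the highest day 5 value. The call of atp-1 was lost without the day 1 library of batch 1, 2 or 4 or the day 5 library of batch 2 or 3, with limma adjusted p from 0.0539 to 0.0788, and without batches 1 and 2 of day 1 (log2 difference -0.48, adjusted p = 0.105 by limma). The genes atp-3, for the stalk protein that links the catalytic head to the membrane part, atp-4 and atp-5 were lower, with log2 differences of -0.74, -0.98 and -1.03. Without the day 1 library of batch 4 the limma adjusted p of atp-4 was 0.0545.

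**Figure D2:**
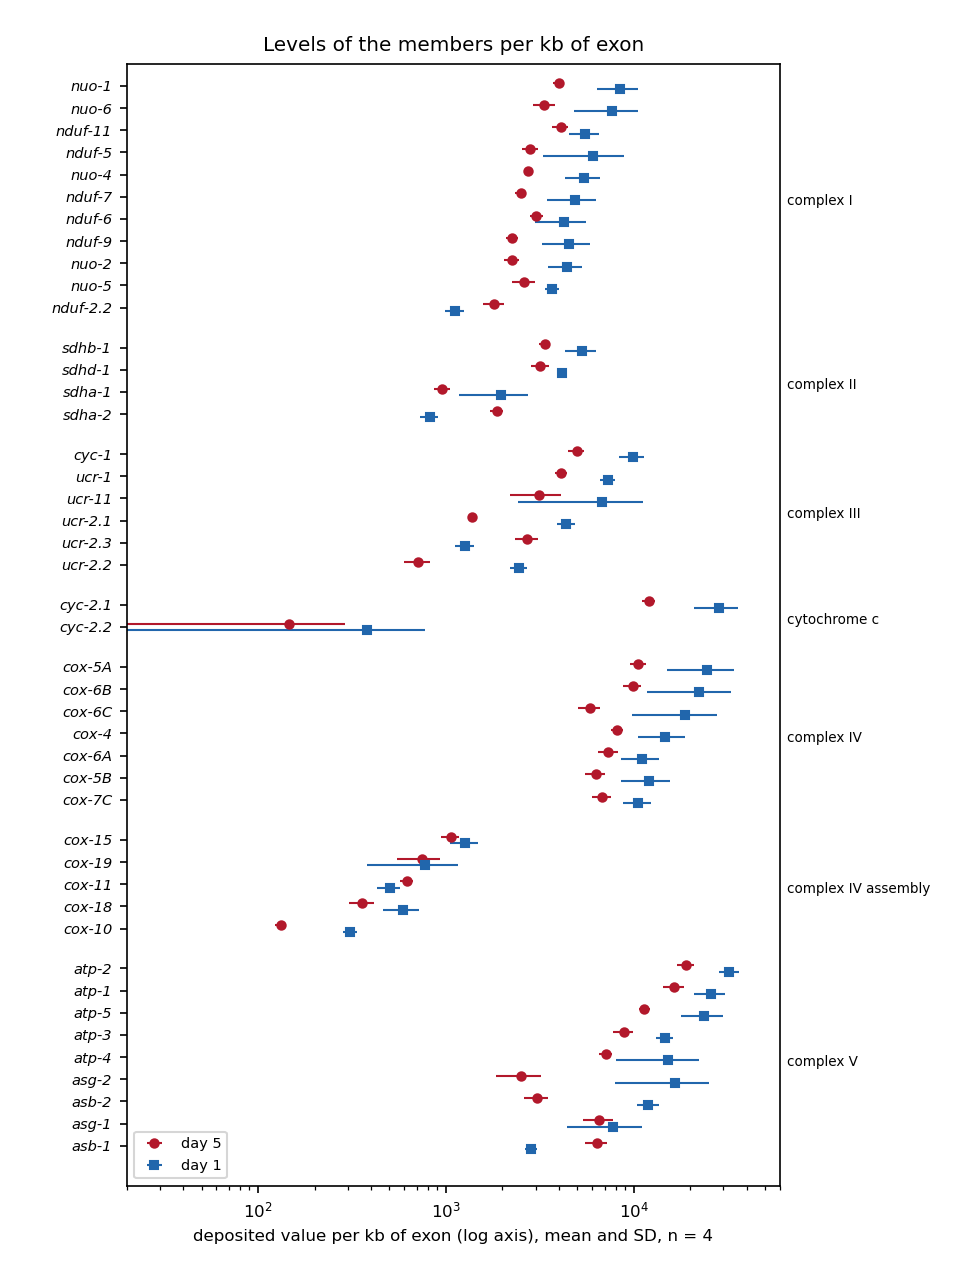
Mean normalised read count per kb of exon (log axis) with SD for the chain genes at day 5 and day 1 (n = 4 libraries per age), ordered within each complex. The genes nuo-3 and cox-14 had almost no reads and are left out, and the lower SD bars of cyc-2.2 run past the axis. The highest gene is atp-2, at 18955 per kb at day 5 and 32230 at day 1.

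Where a subunit comes from several genes, the balance between them moved with age for 5 of 6 subunits. The per-library log2 ratio of the paralogs was compared between the ages with a two-sided exact permutation test, for which 4 against 4 libraries allow no p below 0.0286. Of 7 pairs tested, 6 reached that p, which is 0.0333 after Benjamini-Hochberg adjustment over the 7. Where both genes moved in opposite directions without overlap, the ratio must separate, so this p adds nothing to the single-gene calls. That holds for asb-1 with asb-2, for both pairs of ucr-2.3 and for nduf-2.2 with gas-1. The pairs of ucr-2.3 also share that gene. The plot of paralog values shows both partners of each pair by library.

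**Figure D3:**
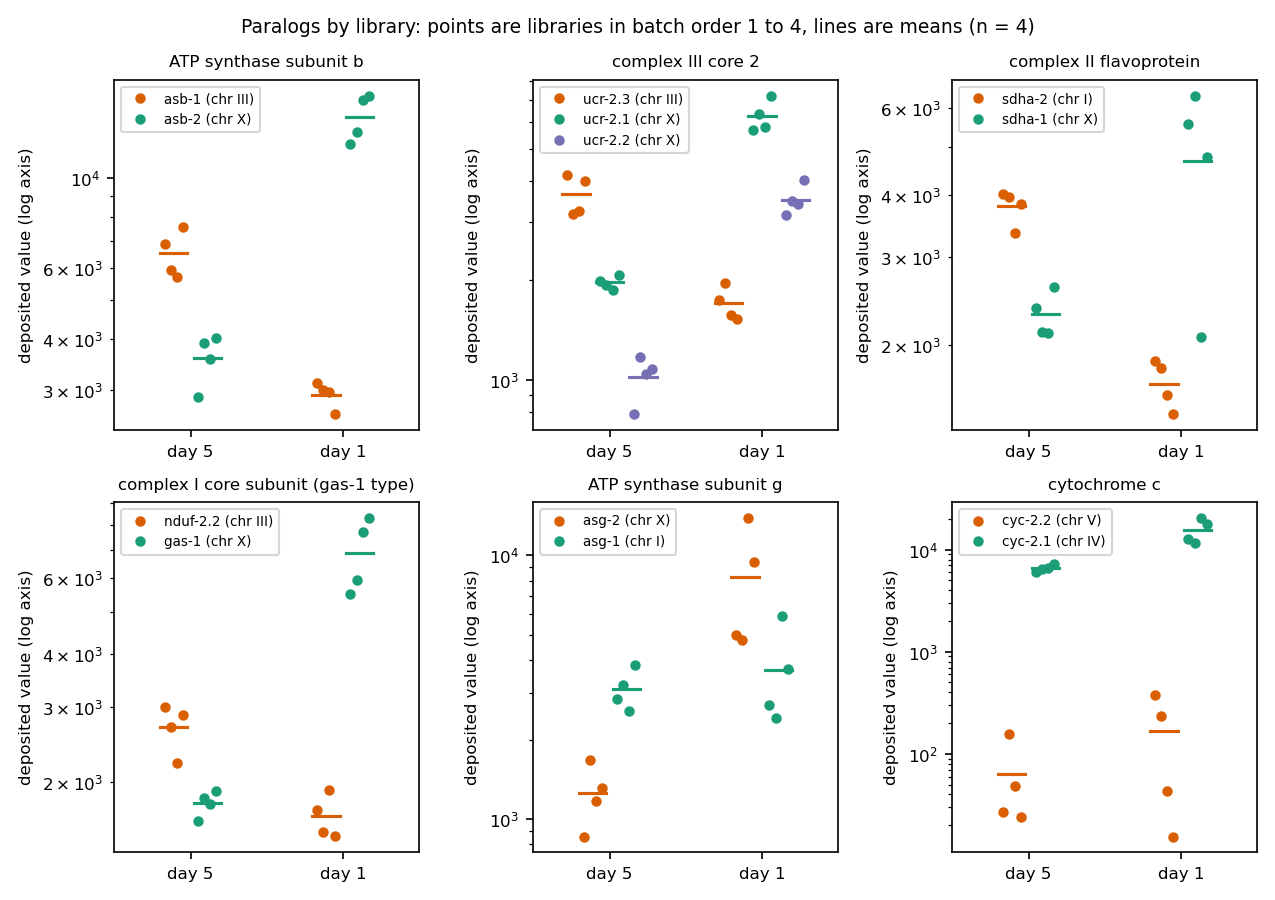
Normalised read counts (log axis) of paralogs of 6 subunits in each library, day 5 left of day 1, with points in batch order and lines at the mean (n = 4). The gene asb-1 lies above asb-2 in every day 5 library and below it in every day 1 library, and the same holds for ucr-2.3 against ucr-2.1 and for nduf-2.2 against gas-1.

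ATP synthase subunit b, part of the stalk that holds the enzyme still, comes from asb-1 (WBGene00000206, chromosome III, 4594543 to 4595821, minus strand) and asb-2 (WBGene00000207, chromosome X, 4469766 to 4471476, plus strand). The germline form asb-1 had 6872, 5925, 5709 and 7578 at day 5 and 3121, 2997, 2964 and 2615 at day 1. Its values did not overlap, with 2.23-fold the day 1 mean at day 5, a log2 difference of 1.15 (SE 0.16) and a limma adjusted p of 0.000225. The other gene, asb-2, had 2885, 3911, 3584 and 4021 at day 5 and 12087, 12989.7, 15559 and 15920.4 at day 1, again without overlap, with a log2 difference of -1.98 (SE 0.18, adjusted p = 1.93e-05 by limma). Per kb of exon, asb-1 made up 67.5 ± 4.4% of the pair at day 5 and 19.4 ± 3.1% at day 1 (SD, n = 4 each). The log2 ratio shifted by 3.13 (exact permutation p = 0.0286). The pair together still had a lower level per kb, 9404 ± 956 at day 5 against 14822 ± 1438 at day 1, with no overlap between the ages.

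Core protein 2 of complex III comes from ucr-2.1, ucr-2.2 and ucr-2.3. The gene ucr-2.3 (WBGene00020757, chromosome III, 879860 to 881458, plus strand) had 4171, 3176, 3239 and 3995 at day 5 and 1747, 1968, 1573 and 1533 at day 1, with a log2 difference of 1.09 (SE 0.17) and a limma adjusted p of 0.000424. In every day 5 library it was above every day 1 library. Both others fell. The values of ucr-2.1 (WBGene00012158, chromosome X, 12018429 to 12021206, plus strand) were 1991, 1941, 1876 and 2081 at day 5 against 5679, 6362, 5816 and 7207 at day 1, with a log2 difference of -1.66 (SE 0.15, adjusted p = 1.83e-05 by limma). Those of ucr-2.2 (WBGene00011679, chromosome X, 15173904 to 15178145, plus strand) were 789, 1171, 1042 and 1084 at day 5 against 3145, 3469.7, 3402 and 4011 at day 1, with a log2 difference of -1.79 (SE 0.18, adjusted p = 3.17e-05 by limma). Neither overlapped between the ages. Of the per-kb level of the 3 genes, ucr-2.3 held 56.2 ± 4.1% at day 5 and 15.7 ± 2.3% at day 1 (SD, n = 4 each). The ratio of ucr-2.3 shifted by 2.75 against ucr-2.1 and by 2.88 against ucr-2.2 on the log2 scale (exact permutation p = 0.0286 each). Together the 3 genes had 4786 ± 363 per kb at day 5 and 8077 ± 698 at day 1.

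The flavoprotein of complex II, which oxidises succinate, comes from sdha-2 (WBGene00016392, chromosome I, 10683270 to 10685587, minus strand) and sdha-1 (WBGene00015391, chromosome X, 8542757 to 8546021, minus strand). Counts of sdha-2 were 4025, 3968, 3352 and 3845 at day 5 against 1851, 1797, 1579.6 and 1447 at day 1, without overlap, with a log2 difference of 1.19 (SE 0.16) and a limma adjusted p of 0.000163. Those of sdha-1 were 2369, 2116, 2112 and 2606 at day 5 against 5560.3, 6339, 2066 and 4784 at day 1. The batch 3 library at day 1 stood apart and lay below all day 5 values, so the ages overlapped. The log2 difference of -0.91 (SE 0.32) passed with a limma adjusted p of 0.034, but the gene was called in 14 of 23 settings. Leaving out any 1 library other than batch 3 of day 1 ended the call, with limma adjusted p from 0.0528 to 0.0879, and without batches 1 and 2 of day 1 the difference was -0.46 (adjusted p = 0.219 by limma). The share of sdha-2 per kb was 66.1 ± 2.3% at day 5 and 31.7 ± 10.5% at day 1 (SD, n = 4 each), a log2 shift of 2.104 (exact permutation p = 0.0286). For this pair the per-kb total was alike in mean and overlapped, with 2825 ± 209 at day 5 and 2773 ± 829.6 at day 1 (SD, n = 4 each).

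A core subunit of complex I comes from nduf-2.2 (WBGene00006463, chromosome III, 6465222 to 6467206, plus strand) and gas-1 (WBGene00001520, chromosome X, 15586786 to 15590397, minus strand), which lies outside the symbol rule. Values of nduf-2.2 were 3001, 2691, 2213 and 2878 at day 5 against 1723, 1531, 1913 and 1492 at day 1. They did not overlap, with a log2 difference of 0.69 (SE 0.17) and a limma adjusted p of 0.00567, and quantile normalization alone of the 23 settings gave no call (log2 difference 0.13). The gene gas-1 had 1625, 1834, 1779 and 1909 at day 5 and 5503, 5958, 7688 and 8299 at day 1, with a log2 difference of -1.92 (SE 0.18, adjusted p = 2.26e-05 by limma) and no overlap. The share of nduf-2.2 per kb was 62.9 ± 3.8% at day 5 and 21.9 ± 3.8% at day 1 (SD, n = 4 each), a log2 shift of 2.61 (exact permutation p = 0.0286).

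Subunit g of the ATP synthase, a small protein of its membrane part, comes from asg-2 (WBGene00000210, chromosome X, 6841258 to 6842121, plus strand) and asg-1 (WBGene00000209, chromosome I, 8692946 to 8693468, plus strand). No other chain gene fell as far as asg-2, with 857, 1668, 1173 and 1309.7 at day 5 against 4997, 4781, 13846 and 9429 at day 1, a log2 difference of -2.62 (SE 0.36) and a limma adjusted p of 0.000207. The ages did not overlap, although the day 1 values in batches 3 and 4 were well above those in batches 1 and 2. The partner asg-1 had 2841, 3221, 2557 and 3837 at day 5 and 2702, 2410.4, 5873 and 3709 at day 1, which overlapped, and was not called (log2 difference -0.16 (SE 0.28), adjusted p = 0.65 by limma). The share of asg-2 per kb was 27.7 ± 5.0% at day 5 and 67.4 ± 3.2% at day 1 (SD, n = 4 each), a log2 shift of -2.45 (exact permutation p = 0.0286). For cytochrome c the shift of cyc-2.2 against cyc-2.1 was 0.33 with an exact permutation p of 0.83, and the ratios of the ages overlapped. It turned negative without batches 3 and 4 of day 1, at -1.73, and was 2.38 without batches 1 and 2.

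In each of the 5 subunits with a shift, the gene that lost share lies on chromosome X and its partner on an autosome: asb-2, ucr-2.1, ucr-2.2, sdha-1, gas-1 and asg-2 are X-linked. This grouping was chosen after the values were seen. All 5 X-linked chain genes were lower, where 39.9% of all X-linked genes tested were lower. Of the 41 autosomal chain genes 26 were lower and 4 higher, where 24.6% of autosomal genes tested were lower and 30.8% higher. Median log2 differences were -1.79 for the X-linked and -0.76 for the autosomal chain genes, beside -0.60 for all X-linked and 0.03 for all autosomal genes tested. The summed value of the X-linked chain genes was 8891 to 11101 at day 5 and 31469 to 41351 at day 1, without overlap. The autosomal sum was 192339 to 235439 at day 5 and 314446 to 405080 at day 1.

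Most of the chain genes looked at outside the symbol rule were lower too. The nuclear ones were a chosen list, which is not a full list of subunit genes with other names. All 6 genes of that list (gas-1, nduv-2, lpd-5, mev-1, isp-1 and hpo-18) were lower, where 26.8% of all genes tested were lower. Their median was -1.18, and 4 were called without batches 3 and 4 of day 1. Among them isp-1, the Rieske iron-sulfur protein of complex III, had a log2 difference of -1.24 (SE 0.20) and mev-1, the cytochrome b subunit of complex II, one of -1.05 (SE 0.20). Of 12 protein genes of mitochondrial DNA 11 were listed, of which 9 were lower and 2, ND2 and ND3, not called, with a median of -1.01. Without batches 3 and 4 of day 1 the count of lower genes was 4. The largest difference was in ND6, a complex I subunit, with 271, 289, 329 and 370.5 at day 5 against 856, 808, 3176 and 2025 at day 1, a log2 difference of -2.21 (SE 0.41) and a limma adjusted p of 0.00137. Its ages did not overlap, but batches 3 and 4 at day 1 were far above batches 1 and 2. Summed over the 11 genes, mitochondrially encoded subunits had 141511, 156751, 173853 and 215829 at day 5 and 268774, 233010.0, 566188 and 390657 at day 1, without overlap. They took 0.825 ± 0.159% of reads at day 5 and 1.82 ± 0.63% at day 1 (SD, n = 4 each). Poly(A) selection decides how much of this RNA enters a library, so these levels are not compared with those of nuclear genes.

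**Figure D4:**
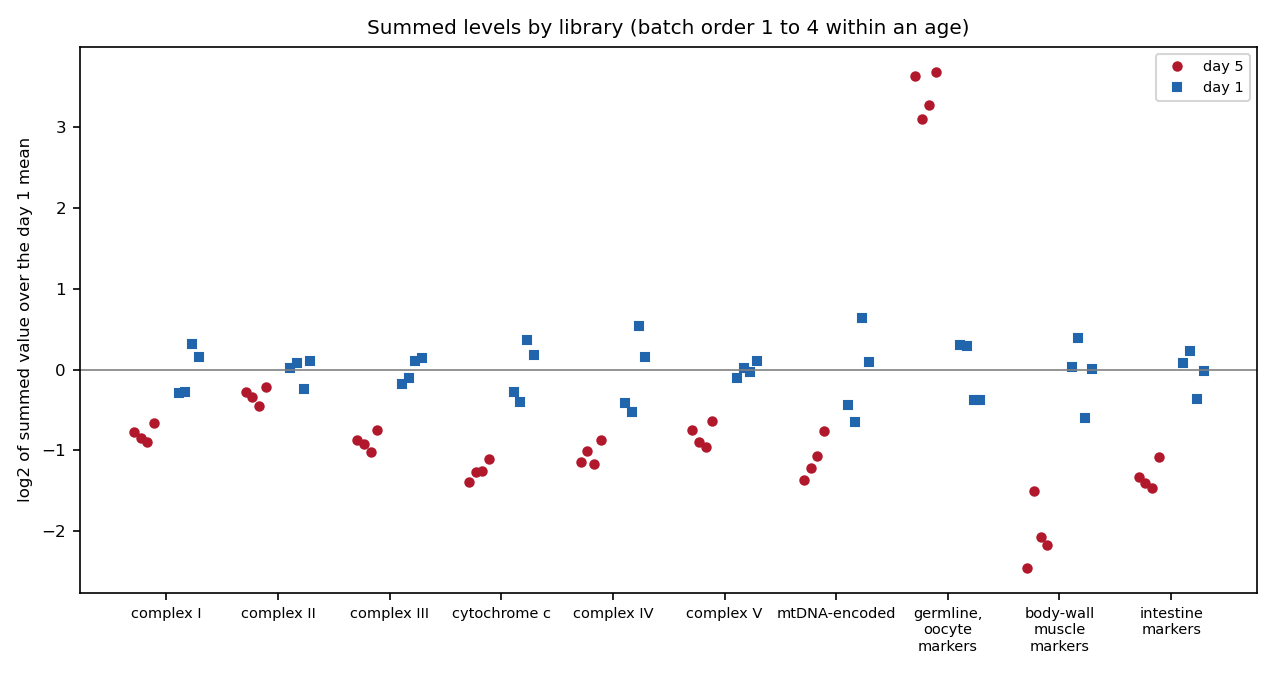
Log2 of the summed normalised read count of each group over its day 1 mean (y axis), by library in batch order, for the chain complexes, the mitochondrially encoded subunits and 3 marker lists (n = 4 libraries per age). Day 5 sums lie below every day 1 sum of the same group for complexes I, III, IV and V and for cytochrome c, and germline marker sums lie above.

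Lists of assembly factors and enzymes that serve the chain gave mixed counts, which stand beside 28.8% higher and 26.8% lower of all genes tested. Of 6 assembly factors with other names 2 were higher and none lower by limma (1 lower at an unadjusted p under 0.05, 1 by edgeR and 1 by DESeq2), with a median of 0.09, and without batches 1 and 2 of day 1 limma called 2 lower. The complex III chaperone gene bcs-1 had 1294, 1183, 1248 and 1484 at day 5 and 654, 654, 975 and 775 at day 1, without overlap, and a log2 difference of 0.78 (SE 0.19, adjusted p = 0.00512 by limma). The heme lyase gene cchl-1, which attaches heme to cytochrome c, had a log2 difference of 0.71 (SE 0.16, adjusted p = 0.00322 by limma). None of 8 ubiquinone synthesis genes was called by limma, with a median of -0.27 and differences from -0.57 in coq-1 to 0.32 in coq-4. At an unadjusted p under 0.05, by edgeR and by DESeq2, 1 of the 8 was lower, and without batches 1 and 2 of day 1 limma called 4 lower. Without batches 3 and 4 it called 1 higher and none lower. Of 20 genes of the tricarboxylic acid cycle and pyruvate dehydrogenase 12 were lower and none higher by limma, edgeR or DESeq2 (1 higher at an unadjusted p under 0.05), with a median of -0.55. With the batch as a term in limma the lower calls of dlst-1 (adjusted p = 0.0556) and fum-1 (adjusted p = 0.0595) were lost. The largest difference of the 20 genes was in idhg-2, a subunit of isocitrate dehydrogenase, with 155, 413, 370.2 and 362 at day 5 against 1026, 1144, 1916 and 1598 at day 1 (log2 difference -2.17 (SE 0.34), adjusted p = 0.000452 by limma, no overlap).

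Of 7 genes for ADP/ATP carriers, ATPase inhibitors and the uncoupling protein 3 were lower, 1 was higher and 3 were not called. Over all genes tested, 26.8% were lower and 28.8% higher. One of the lower carrier genes of this list, ant-1.4, had 23.6, 161, 151 and 114 at day 5 and 1512, 961, 152 and 164 at day 1, which overlapped, with high day 1 values in batches 1 and 2, as in the sums of sperm markers. Its limma adjusted p was 0.0472, and 0.0751 with the batch as a term. The part of that split in ant-1.4 was not tested. Of the 7 genes limma called 2 lower without batches 1 and 2 of day 1 and 3 without batches 3 and 4. The main carrier gene ant-1.1, which exchanges ATP for ADP across the inner membrane, had a log2 difference of -0.87 (SE 0.25, adjusted p = 0.0148 by limma), and the inhibitor gene mai-2 one of -1.01 (SE 0.27, adjusted p = 0.00911 by limma). The uncoupling protein gene ucp-4 was higher, with 905, 719, 638 and 905 at day 5 against 256, 217, 316 and 294 at day 1, without overlap (log2 difference 1.54 (SE 0.21), adjusted p = 0.000197 by limma). Of 13 import genes tested 1 was called, tin-44 of the inner membrane import motor, at -0.67 (SE 0.21, adjusted p = 0.0223 by limma). Its values were 1532, 1419.7, 1078 and 1009 at day 5 against 1669, 1703, 2626 and 2057 at day 1, and they did not overlap. With the batch as a term the limma adjusted p of tin-44 was 0.0583. Import calls varied with the libraries used: edgeR and DESeq2 called 3 lower, and limma 8 without batches 1 and 2 of day 1 and none without batches 3 and 4.

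Of 12 genes of the mitochondrial stress response and proteases 5 were lower and 1 higher, where 26.8% of all genes tested were lower and 28.8% higher. Without batches 3 and 4 of day 1 limma called 4 lower and 2 higher, and without batches 1 and 2 it called 4 lower and 1 higher. The call of the protease gene spg-7 was lost with the batch as a term (adjusted p = 0.0866 by limma). The gene higher in the main test was atfs-1, the transcription factor of the mitochondrial unfolded protein response, with 2596, 1809, 1991 and 2244 at day 5 and 1253, 1321, 762 and 1452 at day 1. These values did not overlap (log2 difference 0.88 (SE 0.23), adjusted p = 0.00862 by limma). The chaperone gene hsp-60 was lower at -0.66 (SE 0.17, adjusted p = 0.00733 by limma), and the chaperone gene hsp-6 had a log2 difference of -0.07 (SE 0.30) and was not called (adjusted p = 0.873 by limma).

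The day 1 libraries were not alike in the chain genes. This description was chosen after the values were seen. Of 44 chain genes with a mean of at least 5, the highest day 1 library was that of batch 3 for 26, batch 4 for 10 and batches 1 and 2 for 4 each. The excess in batch 3 went with short exons: the median log2 ratio of batch 3 over batch 1 at day 1 was 0.80 for the 21 genes with under 1000 exonic bases and 0.15 for the 23 longer ones. The same held over all genes with such a mean, at 0.64 for 4728 genes with under 1000 exonic bases and -0.18 for 10729 longer ones. Without batches 3 and 4 of day 1 the chain median was -0.57, with 29 lower and 4 higher, and without batches 1 and 2 it was -0.93, with 31 lower and 4 higher. Over all genes the medians of these 2 fits were -0.13 and 0.04. Of 16739 genes, 4583 were lower and 5026 higher without batches 3 and 4, and 4750 lower and 5220 higher without batches 1 and 2.

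**Figure D5:**
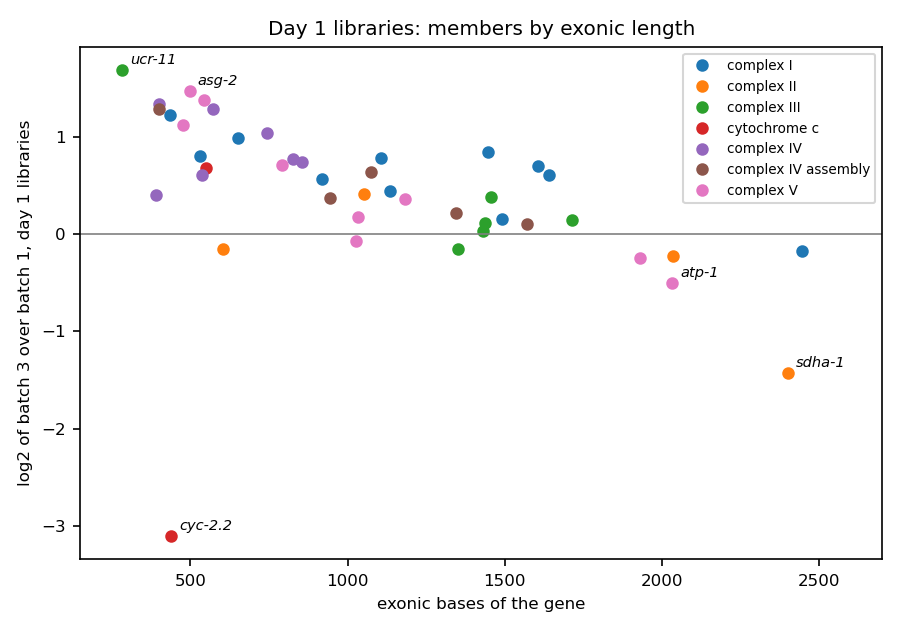
Log2 ratio of the batch 3 over the batch 1 library at day 1 (y axis, value + 1) against the exonic bases of each of 44 chain genes (x axis), coloured by complex. Short genes such as ucr-11 and asg-2 lie high, the long genes atp-1 and sdha-1 lie below 0, and cyc-2.2 lies far below the other short genes.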

How the data were processed

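RNA sequencing libraries of 4 day 5 and 4 day 1 samples were aligned with HISAT2 to WBcel235 and counted with HTSeq, per the submitters' processing notes, in versions not given in the sources used here. Signal values deposited by the authors carry FPKM in the name of their table, but each is a whole number of reads divided by 1 factor per library, and 100% of values gave whole reads within 0.001 of a read. They carry no length correction, so limma was kept as the main test and count tests on the recovered reads were alternatives. How counting treated strand was not stated.

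Values were tested as log2(value + 1) with limma 3.58.1 (R 4.3.3, variance trend, Benjamini-Hochberg) over genes with a mean of at least 1. Alternatives covered the pseudocount (0.1, 5), the filter (none, 5), scaling, the variance model, libraries left out, edgeR 4.0.16 and DESeq2 1.42.0, which gave 23 settings with the main one. Scripts were checked on simulated data. Levels per kb used the exonic bases of Ensembl release 115, and genes of mitochondrial DNA were named by position from RefSeq. The members and lists were chosen with earlier results of these data known. Named are, for each complex, the gene with the highest level per kb, the called genes with no overlap and the largest difference each way, and all paralogs, and for each list the called gene with no overlap and the largest difference. The other genes with values were chosen after their values were seen. The replicate numbers are labelled batches and so pair the libraries by label, but deviations of libraries of 1 batch had correlations of -0.22, 0.24, -0.09 and -0.02, and the main model held no batch term.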

Additional observations from a re-analysis of the deposited data

Results flagged for a closer look

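Of 106 sets of 4 libraries examined, 4 held a library far from the other 3, where chance alone flags about 1 in 20. For nuo-3 the day 1 library of batch 4 had a value of 2.91 and the other day 1 libraries were at 0. For cox-14 the day 1 library of batch 3 had 3.30 and the other day 1 libraries were at 0. Both values rest on about 3 reads. For cox-6A, a subunit of complex IV, the day 5 library of batch 4 had 4633, above the other day 5 libraries. For the flavoprotein pair of complex II, the log2 ratio of sdha-2 to sdha-1 was -0.39 in the day 1 library of batch 3, above the other day 1 libraries.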

How the results depend on the processing

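Between 25 and 36 of the 46 chain genes were lower and between 3 and 5 higher over the 22 alternatives. Leaving out 1 library at a time gave 25 to 32 lower and 4 higher, and leaving out the genes with the highest means from the scaling gave 36 lower. A replicate block, with the labelled batch as a term, gave 31 lower and 4 higher and changed no call of a chain gene. For the paralog shifts the mean within-batch value equals the unpaired one by construction, and 4 pairs allow no p below 0.125 in an exact sign-flip test. Medians of the chain and of all genes, -0.86 and -0.06 in the main test, were -1.11 and -0.30 when scaled without the top genes, -0.90 and -0.23 by edgeR, -0.88 and -0.20 by DESeq2, and -0.94 and -0.13 under quantile normalization. No named chain gene called in the main test changed sign in these alternatives, and the shift of cyc-2.2 against cyc-2.1, 0.33 and not called, was -1.73 without batches 3 and 4 of day 1 and 2.38 without batches 1 and 2 (-0.56 to 1.11 without 1 library). Quantile normalization ended the calls of atp-1 (adjusted p = 0.738 by limma), atp-2 (0.478) and nduf-2.2 (0.514) and gave one for cox-15 (-0.84), as did scaling without the top genes (-0.50). Without batches 3 and 4 of day 1 cyc-2.2 was called, at -2.62. Without the variance trend nuo-5, sdha-1 and cox-6A were not called (0.0565 to 0.0587). The cause of these changes was not tested. For nuo-3 and cox-14, with under 10 reads in every library, a difference was not detectable at this depth.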

Other observations

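Genes that keep mitochondrial DNA, shape the inner membrane or serve mitochondrial fusion and fission were counted beside 28.8% higher and 26.8% lower of all genes tested. They were not tested against the chain genes. Of 5 genes for replication and transcription of mitochondrial DNA, 2 were higher, 1 was lower and 2 were not called, with a median log2 difference of 0.13. The polymerase gene polg-1 was higher, at 1.72 (SE 0.24, adjusted p = 0.00027 by limma), and so was hmg-5, which binds mitochondrial DNA, at 1.21 (SE 0.20, adjusted p = 0.000668 by limma). The gene twnk-1 of the mitochondrial DNA helicase had 10.1, 32.6, 32.8 and 31.9 at day 5 against 93.4, 213, 101 and 271 at day 1. All of its day 5 libraries lay below day 1 (log2 difference -2.60 (SE 0.50), adjusted p = 0.00166 by limma).

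Of 7 genes for the shape of the inner membrane and for the fusion and fission of mitochondria, 3 were higher, 2 lower and 2 not called, and the median was 0.04. The paralogs immt-1 and immt-2 encode the protein that holds cristae junctions, the necks of the folds that carry the chain. Values of immt-2, on chromosome V, were 4671, 3328, 3287 and 4413 at day 5 against 1875, 1754, 1329 and 1417 at day 1, a log2 difference of 1.296 (SE 0.19, adjusted p = 0.000356 by limma). Those of immt-1, on chromosome X, were 1697, 1472, 1451 and 1753 at day 5 against 3363, 3737, 3595 and 4113 at day 1, a log2 difference of -1.22 (SE 0.15, adjusted p = 0.000123 by limma). Neither gene overlapped between the ages, and the X-linked partner was again the lower one. The fission gene drp-1 was higher at 1.07 and the fusion gene fzo-1 at 0.76. The cristae gene chch-3 was lower at -0.62 (adjusted p = 0.0281 by limma, and 0.0579 with the batch block), and without batches 3 and 4 of day 1 only 1 gene of the 7 was called lower.

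Paralogs of the tricarboxylic acid cycle, picked after their values were seen, differed from pair to pair. The subunit gene sucl-1 of succinyl-CoA synthetase, on chromosome X, had 1802, 1768, 1567 and 2030 at day 5 against 4016, 4428, 5991 and 5987 at day 1, without overlap (log2 difference -1.49 (SE 0.19), adjusted p = 0.000125 by limma). Its relative sucl-2, on chromosome III, had a log2 difference of 0.42 (SE 0.19) and was not called (adjusted p = 0.081 by limma). Of the isocitrate dehydrogenase genes, idhg-2 on chromosome I was lower at -2.17 and idhg-1 on chromosome III, at 0.10, was not called, so here the lower gene is autosomal. The oxoglutarate dehydrogenase genes ogdh-1, at 0.06, and ogdh-2, at 0.03, were both not called.

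Of 6 hypodermis markers 4 were lower and 1, col-19, was higher, with sums of 2617 to 14671 at day 5 and 17685 to 23707 at day 1. Of 12 neuron markers 9 were lower and 2 higher, with sums of 8310 to 10461 at day 5 and 11615 to 15266 at day 1. Over all genes tested 26.8% were lower and 28.8% higher. The largest drop of its list was a log2 difference of -3.33 in tnt-4 of pharyngeal muscle and -3.11 in ttn-1 of body-wall muscle. It was -2.65 in cpr-1 of the intestine and -2.18 in unc-25 of GABA neurons, each called by limma.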
